A study of Homo sapiens with 15 samples.

Results

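The results below concern 10 genes of heterogeneous nuclear ribonucleoproteins (hnRNPs), namely HNRNPA1, HNRNPA2B1, HNRNPC, HNRNPD, HNRNPDL, HNRNPH1, HNRNPK, HNRNPL, HNRNPM and HNRNPU. Every intron that the deposited tables assign to 1 of these genes was taken, which gave 201 of the 111143 introns listed, and 190 of them were listed for all 4 comparisons. The genes were chosen by name and not by their values. Polyadenylated RNA was sequenced from HCT116, a human colon cancer cell line, as the wild-type line (WT) and as 4 clones numbered KO-1 to KO-4. The clones carry the genotype bktRNA1-/- and differ from WT in no other labelled allele or treatment. Each group had 3 libraries from independent experiments, all grown untreated in the same serum-supplemented medium. Only 1 WT line was used and every clone is a single isolate. The p-values therefore compare single clones with this line, and all comparisons share the 3 WT libraries. The level of bktRNA1 was not analysed here.

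hnRNPs coat nascent transcripts in the nucleus and steer the choice of splice sites, the export of mRNA and its stability. Many of them control their own amount through alternative exons or retained introns, often near the end of the message, that send the transcript to nonsense-mediated decay. HNRNPC binds uridine tracts and blocks cryptic exons, HNRNPA1 and HNRNPA2B1 mostly act as splicing repressors, HNRNPH1 binds runs of guanines, HNRNPK binds cytosine-rich RNA, and HNRNPD (AUF1) binds AU-rich elements and influences mRNA decay.

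Exon stretches of 4 genes were used differently between WT and at least 1 clone, and they are shown because the results on splice choice turn on them. Each is read from GENCODE v29 transcripts (GRCh38), 5′ to 3′ on the minus strand as it stands in the spliced mRNA. Capitals mark the stretch that only some transcripts hold, and lower case marks the 15 bases on each side that all of the transcripts compared hold. All 4 stretches lie in coding sequence and have a length that is a multiple of 3.
HNRNPC C2 stretch, chr14:21230958-21230996: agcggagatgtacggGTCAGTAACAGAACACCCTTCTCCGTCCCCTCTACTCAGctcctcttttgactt
HNRNPU stretch, chr1:244863617-244863673: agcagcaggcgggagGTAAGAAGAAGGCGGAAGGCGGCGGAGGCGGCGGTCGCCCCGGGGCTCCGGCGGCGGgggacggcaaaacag
HNRNPD exon, chr4:82356537-82356683: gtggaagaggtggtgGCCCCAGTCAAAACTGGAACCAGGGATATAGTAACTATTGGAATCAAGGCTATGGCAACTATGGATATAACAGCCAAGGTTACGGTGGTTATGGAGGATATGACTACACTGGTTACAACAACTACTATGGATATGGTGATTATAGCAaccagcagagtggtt
HNRNPK exon, chr9:83973902-83973973: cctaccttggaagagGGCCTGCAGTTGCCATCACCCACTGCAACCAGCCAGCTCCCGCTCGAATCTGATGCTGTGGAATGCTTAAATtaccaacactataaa
The HNRNPC and HNRNPU stretches begin with GT, the letters of the donor that is used when the stretch is left out, and reach to a second donor downstream. The HNRNPC stretch has 39 bases for 13 residues and turns the C1 form of the protein into C2, and the HNRNPU stretch has 57 bases for 19 residues. The HNRNPD and HNRNPK stretches are whole exons of 147 bases (49 residues) and 72 bases (24 residues).

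Each library held 17287797 to 35348260 junction reads over the introns that all 4 tables list, of which 12.3% to 13.7% crossed an exon-intron boundary. KO-1 had the lowest depth, and the second WT library, in the order of the deposited lists, had the highest depth of WT and the lowest boundary share of all 15 libraries. Of 12 colon epithelial marker genes fixed for the check of the cell line, 7 had listed introns (EPCAM, KRT8, KRT18, KRT19, CDX2, CLDN4 and ESRP1), and of 10 markers of other cell types only COL1A1 had any. CDH1, VIL1, CDH17, LGALS4 and CLDN3 had none. Spliced reads ranged from 102 to 323 for COL1A1, from 52 to 130 for CDX2 and from 20 to 80 for CLDN4. EPCAM, ESRP1 and the keratins had 1009 or more. A change of scaled reads in bulk RNA cannot tell fewer expressing cells from less RNA per cell.

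Splice reads per junction ranked the genes in WT. The median junction of the main annotated transcript of HNRNPA1 carried 304 ± 22 spliced reads per 1000000 junction reads of the library (SD, n = 3) and that of HNRNPA2B1 276 ± 3.1. HNRNPC followed with 123 ± 1.3, HNRNPK with 115 ± 3.3 and HNRNPH1 with 86.5 ± 3.2. HNRNPD at 72.3 ± 6.5 and HNRNPU at 71.8 ± 3.1 lay within their spread of each other, as did HNRNPDL at 62.6 ± 2.8, HNRNPL at 61.9 ± 4.3 and HNRNPM at 58.1 ± 1.4. HNRNPA1 has 74 annotated pseudogenes under its name, against 0 to 9 for the other members, so its counts can be split with near-identical copies and are uncertain.

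Spliced reads were next summed per gene to ask whether the hnRNP messages themselves changed. They were scaled by the median ratio over genes and compared as log2(scaled reads + 0.5) with limma. In KO-2, 9 of the 10 genes fell and 0 rose, against 21.1% of the 9471 genes tested that fell and 21.9% that rose. In KO-4, 5 fell and 0 rose (24.2% and 24.6% of all genes), in KO-1 2 fell and 1 rose (12.5% and 13.7%), and in KO-3 0 fell and 2 rose (15.6% and 15%). For KO-2 and KO-4 a count of 0 rises stood beside 0 genes higher at an unadjusted p under 0.05. From KO-1 to KO-4 the median log2 change over the 10 genes was -0.09, -0.21, 0.05 and -0.12, where the median of all genes lay at or within 0.01 of 0. With scaling to total spliced reads the split of KO-3 became 1 higher and 1 lower and its median -0.02, and that of KO-1 1 higher and 4 lower. Under that scaling 775 of all 9471 genes were higher and 2236 lower in KO-3, with a median of -0.07, so the median gene moved down as well. In KO-1 1138 of all genes were higher and 1330 lower, with a median of -0.01.

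**Figure D1:**
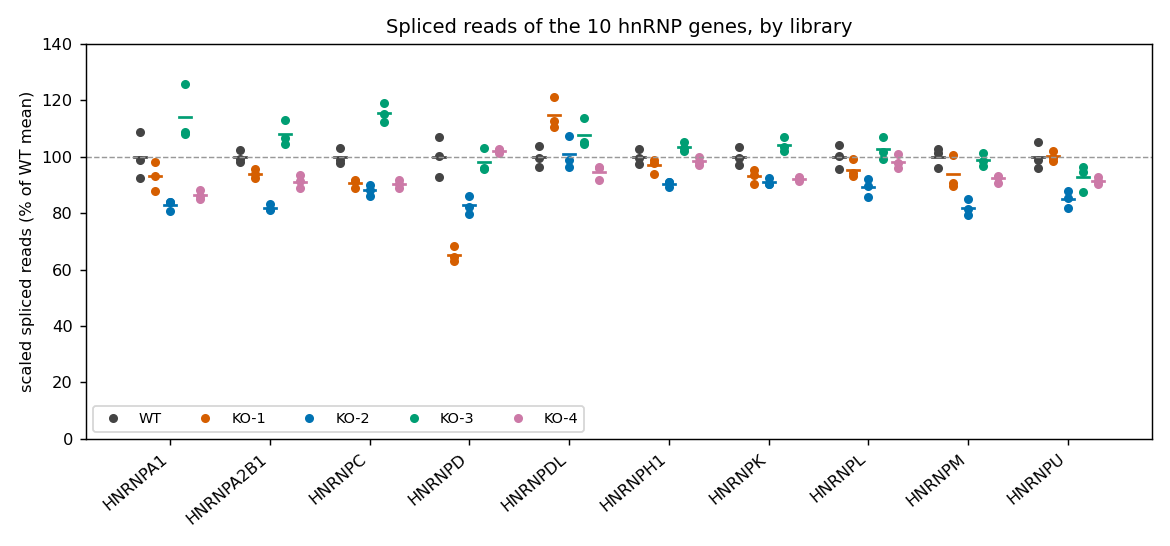
Scaled spliced reads of each hnRNP gene in every library, as percent of the WT mean (points: 3 libraries per group; bars: group means; dashed line: 100%). HNRNPD in KO-1 lies lowest, at 65.4% of WT, and the KO-3 libraries of HNRNPC lie above all WT libraries.

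HNRNPD had the widest change. Its scaled spliced reads were 16502, 17615 and 15267 in WT and 11254, 10625 and 10381 in KO-1. KO-2 held 14175, 13141 and 13555, KO-3 15726, 16961 and 15796, and KO-4 16901, 16676 and 16849. All KO-1 and KO-2 libraries lay below all WT libraries, while KO-3 and KO-4 overlapped with WT. The log2 change was -0.61 ± 0.05 (SE) in KO-1 (limma, adjusted p = 6.8e-09) and -0.27 ± 0.05 in KO-2 (adjusted p = 1.8e-04). It was -0.02 ± 0.05 in KO-3 and 0.03 ± 0.05 in KO-4, with adjusted p of 0.75 and 0.63.

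HNRNPC went in opposite directions between clones. WT libraries held 35482, 34007 and 33688 scaled spliced reads, and the libraries of KO-3, with 40986, 39644 and 38587, were all higher. KO-1 (31525, 31443 and 30536), KO-2 (30343, 29562 and 30937) and KO-4 (30633, 31040 and 31526) were all lower than every WT library. The log2 changes were -0.14, -0.18, 0.21 and -0.15 for KO-1 to KO-4 (SE 0.04 each, limma, adjusted p = 0.015, 0.0011, 6.9e-04 and 0.0059). The KO-1 fall had an adjusted p above 0.05 without the first WT library or the third KO-1 library. HNRNPA1 was likewise higher in KO-3 and lower in KO-2 and KO-4, with 114% of WT in KO-3 (adjusted p = 0.021) and 83.1% and 86.6% in KO-2 and KO-4 (adjusted p = 0.0011 and 0.0073). Its KO-1 mean was 93.3% of WT (adjusted p = 0.24), and its KO-3 rise rested in part on the first KO-3 library, with 103602 scaled reads beside 89751 and 89026 in the other two. That rise was lost without this library or without the second or the third WT library, and the KO-4 fall without the first WT library. The KO-3 count of 2 genes was accordingly 1 without any of these 3 libraries and 4 without the first WT library.

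HNRNPDL, the paralog of HNRNPD that lies beside it on chromosome 4, was the only member to rise in KO-1, with a log2 change of 0.20 ± 0.05 (limma, adjusted p = 0.0062). In KO-2, where the other 9 members fell, it stood at 101% of WT (adjusted p = 0.87). HNRNPA2B1 fell by 0.29 in KO-2 and by 0.13 in KO-4 on the log2 scale (adjusted p = 1.6e-05 and 0.015). The falls of HNRNPM, HNRNPU, HNRNPL, HNRNPH1 and HNRNPK in KO-2 ran from 0.14 (HNRNPK) to 0.29 (HNRNPM) on that scale, with adjusted p between 4.0e-05 and 0.012. In KO-4 HNRNPU and HNRNPK fell by 0.13 and 0.12 (adjusted p = 0.028 and 0.024), and the KO-4 count of 5 genes became 2 without the first WT library or without the second KO-4 library, and 3 without the second WT library or the first KO-4 library.

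All 10 genes differed among the 4 clones in scaled spliced reads, which 75.4% of all genes did. The other genes of RNA-binding proteins of hnRNP type, a list of 38 of which 36 had enough spliced reads, had 23 lower and 1 higher in KO-2, 13 lower and 5 higher in KO-4, 5 lower and 2 higher in KO-1, and 8 lower and 7 higher in KO-3. Their median log2 change was -0.19 in KO-2 and between -0.07 and 0.02 in the other clones. Of these, 10 passed the threshold in at least 3 clones. The share of all genes that did so was not computed, so this count does not show whether the list differs from the rest. CIRBP, the cold-inducible RNA-binding protein, rose in all 4 clones, by 0.35, 0.42, 0.43 and 0.29 on the log2 scale, and PTBP3, a polypyrimidine tract-binding paralog, changed by -0.39, -0.64, -0.23 and -0.19. TIA1, a stress granule protein, rose in KO-1, KO-3 and KO-4 by 0.23, 0.25 and 0.40. HNRNPR, DAZAP1, KHSRP and CELF1 each fell in 3 clones, and HNRNPA3, HNRNPH3 and FUBP1 each fell in 2 clones and rose in KO-3 by 0.12 to 0.13.

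Retention was then asked of each intron. The retention level is the share of boundary reads (retained reads) among boundary and spliced reads with each form divided by its effective length. Of the 201 introns, 143 lie between coding exons, 30 in 5′ untranslated and 22 in 3′ untranslated parts, and 6 in noncoding transcripts. An exon of another annotated transcript lies in or reaches into all but 90 of them, so that boundary reads of the others can come from such an exon as well as from a retained intron. For 118 introns the reads sufficed for a test in at least 1 clone, with a mean of 10 retained and 10 spliced reads per library, and 83 were not tested. WT levels of tested introns ran from 0.0506% in HNRNPA2B1 to 98.0% in HNRNPH1. Among introns with no other annotated exon, the median WT level per gene lay between 0.270% (HNRNPA2B1) and 2.09% (HNRNPH1). Where exons of other transcripts let the intron ends be read, 107 of 110 donors began with GT and 3 with GC, all of 118 acceptors ended in AG, and 0 donors came within 1 mismatch of GTATCCTT or ATATCCTT, the U12-type motifs, on the gene's strand.

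In KO-1, 10 of 111 tested introns rose and 0 fell, where 1.29% of all tested introns rose and 0.175% fell, and 4 were lower at an unadjusted p under 0.05. In KO-2, 11 of 114 rose and 1 fell (1.3% and 0.304% of all). In KO-3, 0 of 117 rose and 2 fell (0.558% and 0.155%), with 12 higher at an unadjusted p under 0.05, and in KO-4 2 of 117 rose and 3 fell (1.54% and 0.429%). The median change of the log2 odds of retention over the tested introns was 0.30, 0.19, 0.05 and 0.07 for KO-1 to KO-4, beside 0.13, 0.10, 0.02 and 0.17 over all introns. After centring on the median of all introns the splits became 1 higher and 3 lower in KO-1, 4 and 4 in KO-2, 0 and 2 in KO-3, and 1 and 5 in KO-4. Introns without another annotated exon numbered 57 in each comparison. Retention rose for 4 of them in KO-1, for 3 in KO-2 and for 0 in KO-3 or KO-4, whose unadjusted p was under 0.05 for 5 and 6 higher introns. No share over all introns is given for the centred test or for introns without another exon. Those counts therefore do not show whether the hnRNP introns differ from the rest.

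These counts depended on single libraries and on the test. KO-1 had 2 calls without the second WT library, 21 without the third, 0 without the first KO-1 library, and 3 and 4 without the second and the third. KO-2 had 3 calls without the second WT library and 4 without the first KO-2 library. KO-3 had 1 call without the first or the second WT library or the first KO-3 library and 5 without the third WT library, and KO-4 had 2 without the second KO-4 library. With limma on the log2 odds in place of the quasi-binomial test, 0 introns were called in any clone, and 19, 11, 4 and 13 had an unadjusted p under 0.05 in KO-1 to KO-4.

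**Figure D2:**
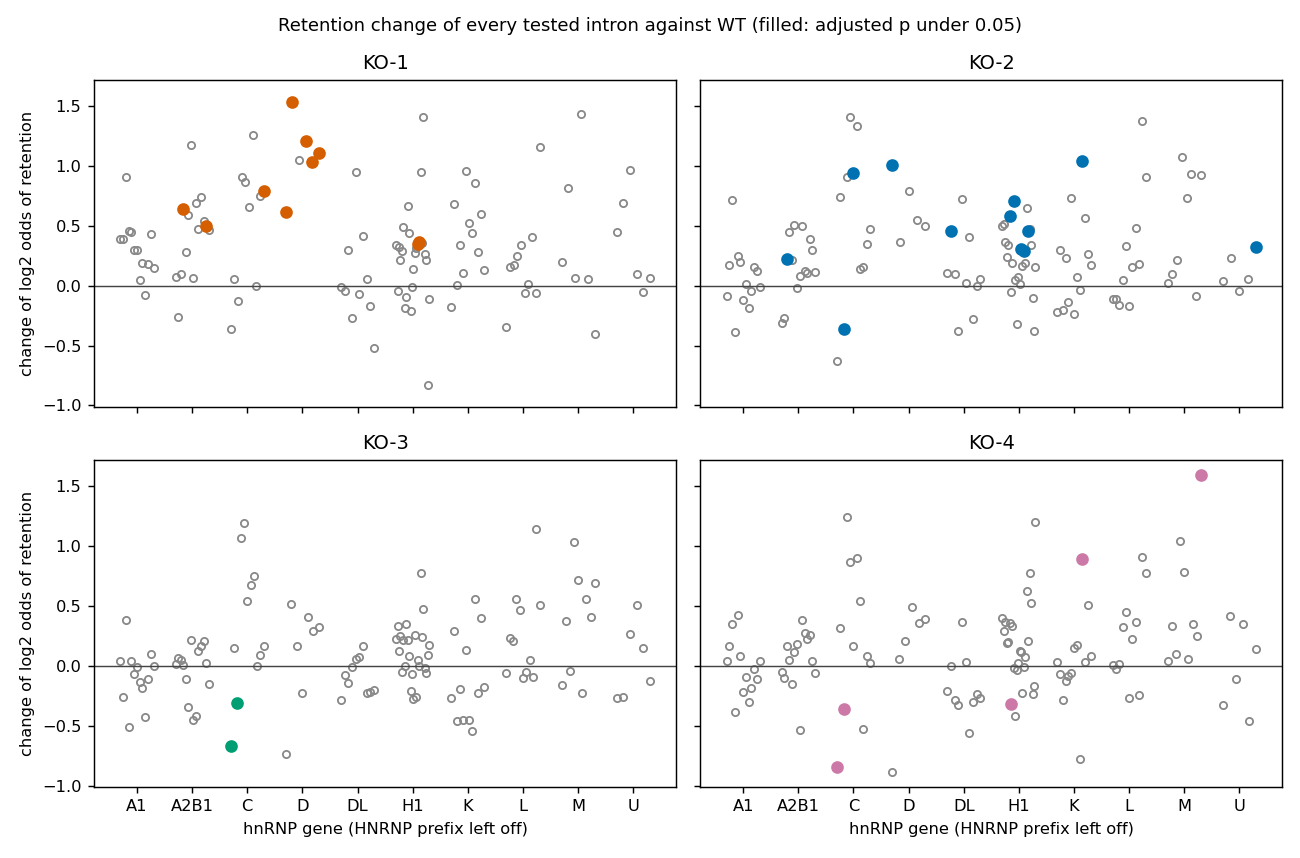
Change of the log2 odds of retention against WT for every tested intron, by gene and clone (open points: not past the threshold; filled points: quasi-binomial test, adjusted p under 0.05). The filled points of KO-1 are all above 0 and 5 of them are HNRNPD introns, and those of KO-3 are 2 HNRNPC introns below 0.

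No intron was called in all 4 clones, 1 was called in 3, 4 in 2 and 18 in 1. The shares of all introns were not computed for these counts, which do not show whether the hnRNP introns differ from the rest. The intron called in 3 clones was intron 3 of 7 of the HNRNPC-203 transcript (chr14:21230367-21230996), a coding intron that starts with the C2 stretch printed above. Its level was 23.9%, 23.9% and 24.7% in the WT libraries and 18.7%, 19.9% and 20.6% in KO-2. KO-3 had 19.3%, 22.1% and 20.1%, and KO-4 19.1%, 19.8% and 20.7%. KO-1 lay between, at 23.2%, 21.9% and 22.6%, and no library of any clone reached a WT library. The log2 odds changed by -0.36, -0.31 and -0.36 in KO-2, KO-3 and KO-4 (SE 0.05 each, quasi-binomial test, adjusted p = 5.8e-08, 2.6e-05 and 8.2e-09), and by -0.13 ± 0.05 in KO-1 (adjusted p = 0.28). These calls were kept when any 1 library was left out.

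Exons that hold the C2 stretch give boundary reads at this intron, so the fall in its level need not be one of retention. The intron from the C2 donor to the same acceptor (chr14:21230367-21230957) was retained at 0.460% in WT. It held 0.472%, 0.780%, 0.491% and 0.565% in KO-1 to KO-4 (quasi-binomial test, adjusted p from 0.40 to 0.98). The use of the C2 donor was therefore measured from spliced reads alone. Both donors join the same acceptor, and the C2 junction took 35.5%, 37.1% and 37.1% of the spliced reads there in WT, from 1824, 2163 and 1817 reads. Its share was 29.4%, 31.1% and 31.9% in KO-2, and 30.0%, 31.5% and 32.0% in KO-4. In KO-3 it was 30.6%, 34.9% and 31.6%, and in KO-1 36.0%, 34.4% and 36.2%. The C2 share was thus below every WT library in all libraries of KO-2, KO-3 and KO-4, and KO-1 overlapped with WT. In those clones the log2 odds of C2 use changed by -0.37 ± 0.06, -0.27 ± 0.07 and -0.35 ± 0.07 (quasi-binomial test, adjusted p = 2.5e-05, 0.011 and 9.4e-05), and by -0.07 ± 0.07 in KO-1 (adjusted p = 0.67). The difference among the 4 clones had an adjusted p of 0.0025. The KO-3 call was lost without the second WT library, the first KO-3 library or the third KO-3 library.

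Tests of this kind, each on the share of 1 junction at a donor or acceptor that several junctions share, covered 44 junctions of the 10 genes in 52 tests. KO-1 had 8 calls in 51 tests, beside 5.58% of all such tests. The 7 calls of KO-2 in 51 tests stood beside 8.98%, the 3 calls of KO-3 in 52 tests beside 3.17%, and the 5 calls of KO-4 in 52 tests beside 7.35%. Without the first and without the second KO-1 library the KO-1 count was 4 and 5, and without the second WT library that of KO-2 was 4 and that of KO-4 was 2. KO-3 had 1 call without its first library and 5 without its second, and KO-4 had 3 without its first or its second. Among the 4 clones 21 of 52 tests differed, beside 20.6% of all. All these counts are of tests, and a junction tested at both of its ends counts at each. The calls of KO-1 to KO-4 against WT were of 6, 6, 2 and 4 junctions in 4, 5, 1 and 3 genes.

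At the 5′ end of HNRNPC, a junction of 35068 bases (chr14:21234230-21269297, in HNRNPC-230) skips an untranslated exon of 26 bases. It took 39.2%, 40.5% and 37.1% of the spliced reads at its acceptor in WT. KO-1 libraries had 45.0%, 45.6% and 47.3% and KO-2 libraries 46.7%, 47.6% and 48.9%. The share in KO-3 was 45.3%, 42.2% and 42.4%, and in KO-4 36.5%, 36.8% and 35.0%. Libraries of KO-1, KO-2 and KO-3 were all above WT and those of KO-4 all below. The changes in log2 odds were 0.41 ± 0.07, 0.52 ± 0.06, 0.26 ± 0.07 and -0.18 ± 0.07 (quasi-binomial test, adjusted p = 7.4e-06, 1.4e-09, 0.011 and 0.083), and the clones differed with an adjusted p of 2.6e-18. The KO-3 call was lost without the third WT library or the first KO-3 library. The introns on either side of the skipped exon had low levels. The downstream one (chr14:21234230-21263310) went from 0.672% ± 0.083 in WT to 1.29% ± 0.28 in KO-2 (adjusted p = 0.0090), and the upstream one (chr14:21263337-21269297) from 1.21% ± 0.15 to 2.04% ± 0.82 in KO-1 (adjusted p = 0.021), where the KO-1 libraries held 2.91%, 1.93% and 1.27%. The first of these calls was lost without the second WT library or the first or second KO-2 library, and the other without the first or second KO-1 library. Both introns share an end with the skipping junction and overlap exons of other transcripts, so their levels are not independent of its use. Spliced reads per 1000000 junction reads went from 123 in WT to 88.1 in KO-2 downstream, and from 120 to 92.9 in KO-1 upstream. Retained reads went from 1.66 to 2.31 and from 2.94 to 3.89.

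**Figure D3:**
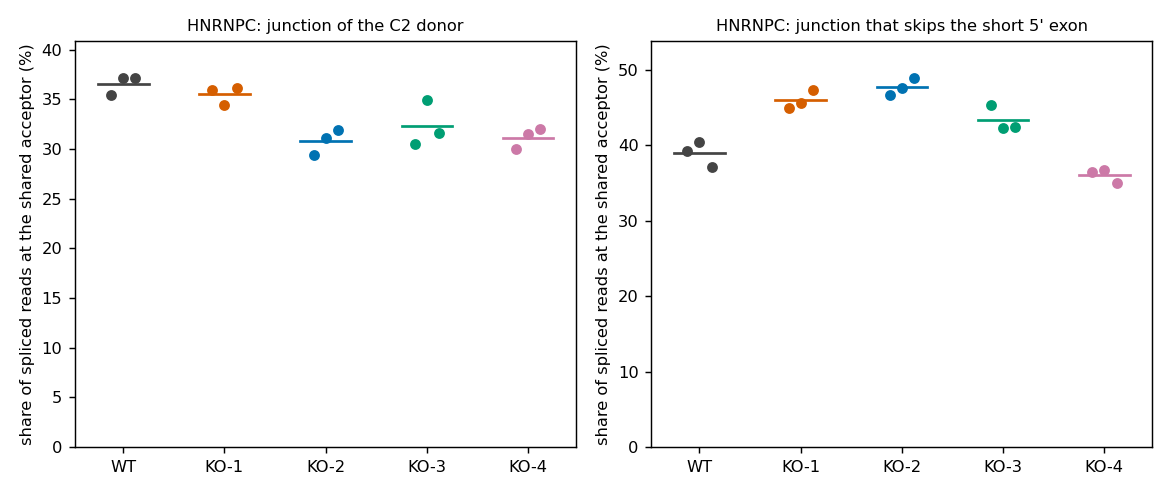
Share of spliced reads at the shared acceptor for the HNRNPC junction of the C2 donor (left) and for the junction that skips the short untranslated exon (right), in percent (points: libraries; bars: means). The C2 share lies under WT in every clone but KO-1, and the skipping share lies over WT in every clone but KO-4.

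The last intron of HNRNPC-219 (chr14:21211307-21211405, intron 8 of 8, coding) was retained at 1.84%, 1.94% and 1.65% in WT. It fell in KO-3 to 1.02%, 1.22% and 1.24% and in KO-4 to 1.12%, 0.960% and 0.982% (quasi-binomial test, adjusted p = 0.040 and 0.0032). KO-2 had 1.20%, 1.23% and 1.14% (adjusted p = 0.053), and KO-1 1.09%, 1.76% and 1.40% (adjusted p = 0.51). No library of KO-2, KO-3 or KO-4 reached WT, and the test among clones gave an adjusted p of 0.42. The KO-3 call was lost in 5 of its 6 leave-one-out fits, and the KO-4 call without the second KO-4 library.

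HNRNPD had 5 of its 6 tested introns higher in KO-1, the clone in which its spliced reads were lowest. They are not all separate, as those at the last intron share a donor and the forms of intron 2 share an acceptor. Spliced reads of these introns also enter the gene sum, so the measures are not independent. The last intron of HNRNPD (chr4:82354155-82355303) is intron 8 of 8 of HNRNPD-201, in the 3′ untranslated part. It encloses an exon of 107 bases that is annotated only in a transcript class for nonsense-mediated decay, HNRNPD-211. The intron was retained at 5.47%, 4.11% and 6.24% in WT, at 7.26%, 7.80% and 8.18% in KO-1 and at 10.4%, 10.2% and 8.97% in KO-2. KO-3 had 9.63%, 6.28% and 5.58%, with its first library apart from the others, and KO-4 had 5.36%, 6.21% and 4.46%. KO-1 and KO-2 did not overlap with WT. The log2 odds rose by 0.62 ± 0.15 in KO-1 and 1.00 ± 0.12 in KO-2 (quasi-binomial test, adjusted p = 0.014 and 1.3e-08), and the adjusted p was 0.073 in KO-3 and 0.90 in KO-4. The test among clones gave 1.5e-09. Retained reads per 1000000 junction reads were 6.88 in WT, 6.54 in KO-1 and 10.6 in KO-2, while spliced reads were 62.5, 39.1 and 48.1, so that in KO-1 the spliced reads were lower and the retained reads were not higher. The KO-1 call was lost without the second WT library or any 1 of the KO-1 libraries.

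The coding introns of HNRNPD with a call in KO-1 were intron 3 (chr4:82358821-82359470), from 0.711% ± 0.26 in WT to 1.57% ± 0.26, and intron 2 (chr4:82359640-82371527), from 1.03% ± 0.29 to 2.03% ± 0.45, both free of other annotated exons. Their adjusted p was 0.010 and 0.022, and both calls were lost without the second WT library or the first or the third KO-1 library. The remaining calls were an intron of HNRNPD-211 inside the last intron (chr4:82355002-82355303), from 77.0% ± 3.7 to 90.5% ± 1.6, and a longer form of intron 2 (chr4:82359640-82373445, in HNRNPD-202), from 8.78% ± 2.0 to 16.9% ± 3.4 (adjusted p = 0.031 and 0.041), each lost in 4 or 5 of its 6 leave-one-out fits. At the HNRNPD-211 intron the enclosing last intron can also give boundary reads, so its level is not the retained share of HNRNPD mRNA. Its retained reads per 1000000 junction reads were 9.20 in WT and 9.01 in KO-1, and its spliced reads 1.37 and 0.473. The junction that joins the 147-base exon printed above to the exon downstream took 37.8%, 36.7% and 34.8% of reads at the shared acceptor in WT and 43.0%, 45.3% and 44.6% in KO-1. The exon separates the shorter and longer AUF1 forms, and its use in KO-1 was above all WT libraries (log2 odds change 0.47 ± 0.11, adjusted p = 0.0019). On its other side the inclusion junction went from 45.2%, 44.8% and 43.5% to 48.4%, 52.0% and 53.5% (adjusted p = 0.012). In KO-2, KO-3 and KO-4 the adjusted p of both junctions lay between 0.13 and 0.88, and the tests among clones gave 0.032 and 0.016. All libraries of KO-2 and KO-3 were nevertheless above all WT libraries at both junctions, and KO-4 overlapped with WT. At the acceptor KO-2 had 38.9%, 41.4% and 39.3% and KO-3 42.3%, 40.1% and 39.0%. Without the second KO-1 library neither junction was called, and without the third the second junction was not.

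**Figure D4:**
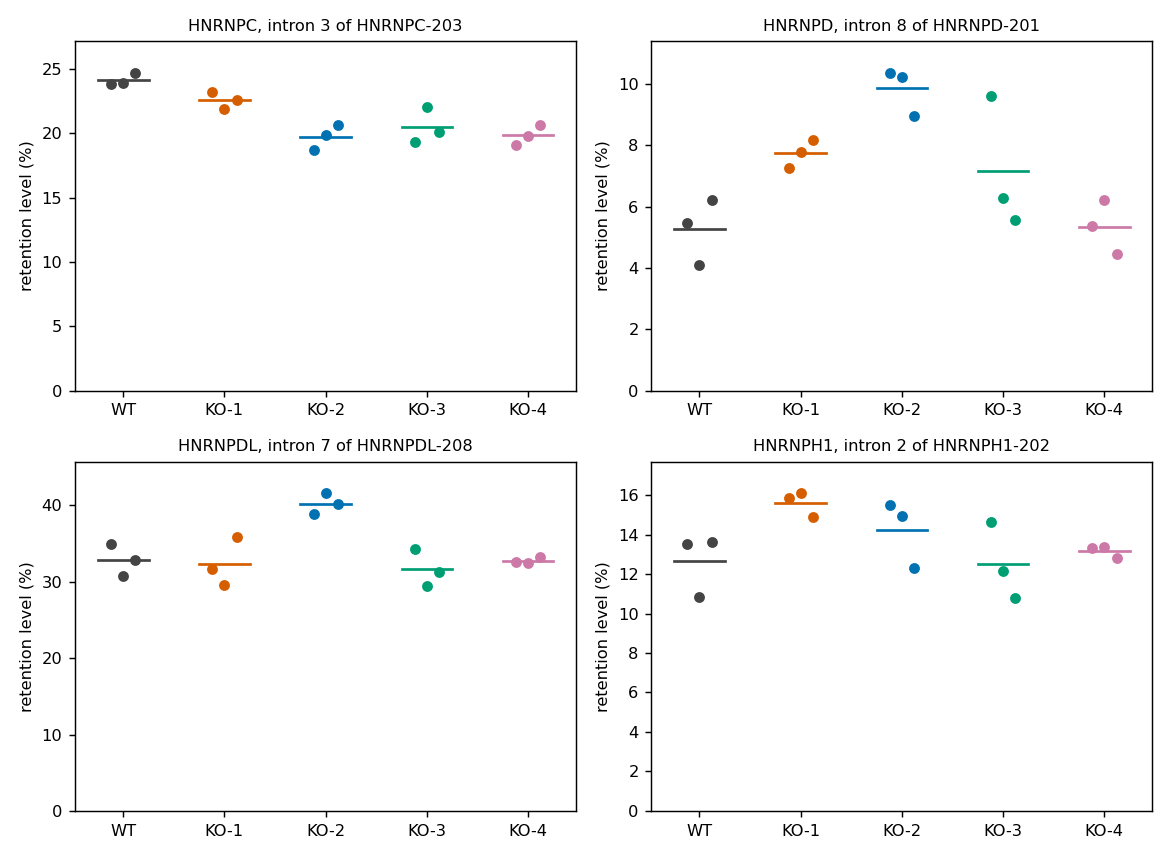
Retention level in percent of 4 introns in every library (points: libraries; bars: means): HNRNPC intron 3 of HNRNPC-203, the last introns of HNRNPD-201 and HNRNPDL-208, and intron 2 of HNRNPH1-202. HNRNPC is lower in KO-2, KO-3 and KO-4 than in WT, HNRNPD and HNRNPDL are highest in KO-2, and HNRNPH1 is highest in KO-1. The HNRNPC level also counts boundary reads of exons that hold the C2 stretch.

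HNRNPDL has a like arrangement, with an exon of 105 bases of a decay-annotated transcript inside its last intron (chr4:82424884-82426036, intron 7 of 7 of HNRNPDL-208). Retention there was 34.9%, 30.8% and 32.8% in WT and 38.9%, 41.6% and 40.1% in KO-2, where no library overlapped with WT (log2 odds change 0.46 ± 0.09, quasi-binomial test, adjusted p = 3.4e-04). The other clones had means of 32.3%, 31.6% and 32.8% with adjusted p from 0.92 to 1.0, and the clones differed with an adjusted p of 9.9e-08. Spliced reads that enter the enclosed exon gave no call against WT. Their share at the donor was 20.1%, 18.2% and 21.1% in WT and 21.0%, 25.5% and 26.2% in KO-2, which overlapped with WT (adjusted p = 0.051). KO-1, KO-3 and KO-4 had means of 16.8%, 20.6% and 23.2% (adjusted p = 0.25, 0.87 and 0.21). Spliced reads that leave this exon took 8.4%, 8.7% and 9.3% at the shared acceptor in WT and 10.4%, 11.4% and 14.1% in KO-2. There KO-2 lay above every WT library (quasi-binomial test, adjusted p = 0.057), and the other clones had adjusted p from 0.42 to 0.85. For the exon of HNRNPD the share at the donor was 1.87%, 2.12% and 2.46% in WT and 3.56%, 3.44% and 2.69% in KO-2 (adjusted p = 0.073). In KO-1, where retention of the enclosing intron rose, the share was 0.934%, 1.16% and 1.54%, below every WT library (log2 odds change -0.87 ± 0.37, adjusted p = 0.14). It rested on 8, 9 and 10 reads there. KO-3 and KO-4 had means of 2.76% and 1.88% (adjusted p = 0.46 and 0.73).

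HNRNPA2B1 also has a decay-annotated junction in its 3′ untranslated part (chr7:26191129-26192494, HNRNPA2B1-203). Its share at the donor rose in KO-2, from 2.71%, 2.73% and 2.33% in WT to 3.44%, 4.01% and 3.65% (quasi-binomial test, log2 odds change 0.53 ± 0.12, adjusted p = 0.0011). KO-4 and KO-1 had adjusted p of 0.069 and 0.11. The intron of the main transcript at that donor (chr7:26192339-26192494) rose in KO-2 from 8.48% ± 0.90 to 9.71% ± 0.54 (adjusted p = 0.020), although its groups overlapped. In KO-1, intron 9 (chr7:26192578-26193250) rose from 0.669% ± 0.086 to 1.03% ± 0.079 and intron 1 (chr7:26197733-26200571) from 1.69% ± 0.31 to 2.33% ± 0.13 (adjusted p = 0.035 and 0.041). Each of these 3 calls was lost in 4 or 5 of its 6 leave-one-out fits.

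HNRNPH1 had calls in KO-1, KO-2 and KO-4. The first 4 introns of HNRNPH1-202 were retained at 8.91% to 18.2% in WT, and intron 2 (chr5:179621036-179621241) and intron 4 (chr5:179618324-179619268) hold no exon of another transcript. Intron 2 had 13.5%, 10.8% and 13.7% in WT and 15.8%, 16.1% and 14.9% in KO-1, above all WT libraries (log2 odds change 0.36 ± 0.09, quasi-binomial test, adjusted p = 0.0083). Intron 3 (chr5:179619408-179620891) had 17.9%, 14.8% and 18.2% in WT and rose in KO-1 to 21.3%, 20.1% and 20.1% (adjusted p = 0.0039). It also rose in KO-2, to 21.8%, 20.8% and 17.7%, which overlapped with WT (adjusted p = 0.025). In KO-2 the calls further took in introns 1, 4 and 8 of that transcript and intron 9 of HNRNPH1-216, with log2 odds changes of 0.31 to 0.71 and adjusted p of 0.013 to 0.029. The second WT library was the lowest of WT in introns 1 to 4, and without it all 7 of these rises in KO-1 and KO-2 had an adjusted p above 0.05. The HNRNPH1-216 intron (chr5:179616219-179617020) encloses an exon of HNRNPH1-202 that can give boundary reads. Its junction took 8.78% of reads at the acceptor in WT, 6.46% in KO-1 and 6.71% in KO-2 (quasi-binomial test, adjusted p = 0.030 and 0.020). The groups overlapped. KO-3 and KO-4 had 8.51% and 7.06% (adjusted p = 0.90 and 0.069). The rise in level in KO-2 thus need not be retention. In KO-4 intron 9 of HNRNPH1-202 (chr5:179616959-179617050) fell from 18.3% ± 3.2 to 15.2% ± 0.90 (adjusted p = 0.0041), with overlapping groups, a call lost without the third WT library or the second KO-4 library.

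HNRNPK skipped its 72-base exon more in 2 clones. The skipping junction (chr9:83973400-83974516, HNRNPK-206) took 9.37%, 7.47% and 10.2% of reads at its acceptor in WT, 12.1%, 11.5% and 11.8% in KO-1 and 11.0%, 11.0% and 12% in KO-4, both above WT. The log2 odds changed by 0.45 ± 0.11 and 0.38 ± 0.10 (quasi-binomial test, adjusted p = 0.0033 and 0.0067). KO-2 had 8.90%, 8.46% and 10.3% and KO-3 9.68%, 9.33% and 10.3%, which overlapped with WT (adjusted p = 0.80 and 0.57), and the clones differed with an adjusted p of 0.0017. Neither call was kept without the second WT library, nor that of KO-1 without the first KO-1 library, nor that of KO-4 without the third KO-4 library. Intron 6 of 16 of HNRNPK-204 (chr9:83974590-83975461) was retained at 0.431%, 0.371% and 0.582% in WT and at 0.954%, 0.855% and 0.987% in KO-2 (adjusted p = 0.0037). In KO-4 it had 0.794%, 0.820% and 0.921% (adjusted p = 0.017), and every library of KO-1 and KO-3 was above WT too, with adjusted p of 0.088 and 0.47. The KO-4 call was lost in 5 of its 6 leave-one-out fits and the KO-2 call without the second WT library.

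**Figure D5:**
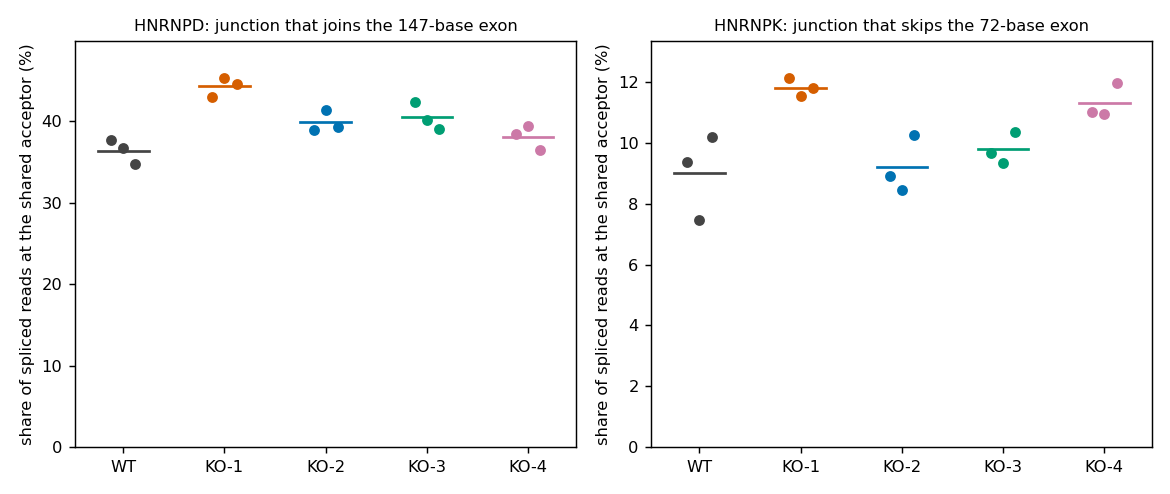
Share of spliced reads at the shared acceptor, in percent, for the HNRNPD junction that joins the 147-base exon (left) and the HNRNPK junction that skips the 72-base exon (right) (points: libraries; bars: means). HNRNPD is highest in KO-1, and HNRNPK lies above WT in KO-1 and KO-4.

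HNRNPU, a scaffold protein that binds chromatin and RNA, used the longer form of its first coding exon more in KO-2. The junction behind the 57-base stretch printed above took 28.1%, 27.0% and 26.0% in WT and 30.9%, 33.1% and 30.5% in KO-2 (quasi-binomial test, log2 odds change 0.31 ± 0.09, adjusted p = 0.019), with adjusted p of 0.56 to 0.93 in the other clones. Retention of the intron that starts with the stretch (chr1:244862731-244863673) rose in KO-2 as well, from 15.8%, 15.5% and 14.8% to 19.8%, 18.5% and 17.7% (adjusted p = 0.022). No KO-2 library overlapped with WT in either measure. Exons that hold the stretch give boundary reads at this intron, so the measures are not independent and the rise in level need not be retention. Both calls were lost without the second WT library or the second KO-2 library, and the retention call also without the first KO-2 library.

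HNRNPM, which takes part in alternative splicing of epithelial genes, had 1 call. Its last intron (chr19:8487076-8488690) rose in KO-4 from 0.292%, 0.342% and 0.333% to 1.01%, 0.856% and 1.07% (log2 odds change 1.60 ± 0.40, quasi-binomial test, adjusted p = 0.0062). In HNRNPA1, and in HNRNPL, which binds CA repeats, the quasi-binomial test called 0 introns in any clone. At an unadjusted p under 0.05, 5 of the 13 tested introns of HNRNPA1 were higher in KO-1 and 1 in KO-2, and 1 was lower in KO-3 and 1 in KO-4. HNRNPL had 2 of 10 higher in KO-1, and 3 of 11 in each of the other clones with 1 lower in KO-4. The last intron of HNRNPA1-203 (chr12:54284318-54284548), the tested one with most retained reads, held 4.37% ± 0.38 in WT and 4.89%, 4.84%, 4.02% and 4.27% in KO-1 to KO-4 (adjusted p from 0.21 to 0.92). In HNRNPL, intron 7 of HNRNPL-202 (chr19:38840560-38841612), which no other exon enters, was retained at 64.7% ± 4.1 in WT and between 64.0% and 68.1% in the clones (adjusted p from 0.82 to 0.99). HNRNPL-202 is annotated for nonsense-mediated decay, and this intron lies inside the longer intron chr19:38840560-38843841 of HNRNPL-201. Its junction took 1.97%, 1.34% and 1.60% of spliced reads at the shared acceptor in WT, from 37, 32 and 33 reads. The level thus sets boundary reads, which the longer intron can also give, against few spliced reads, and is not the retained share of HNRNPL mRNA. Of 115 introns tested among the 4 clones, 24 differed, beside 6.41% of all introns.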

How the data were processed

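Directional libraries of polyadenylated RNA came from HCT116 WT and 4 clones, per the labels' protocols. The submitters' processing notes name cutadapt 2.0, STAR 2.7.1a and the hg38 build. Which tool counted the reads and which test gave the p-values is not given in the sources used here. For each clone against WT the authors deposited 1 table, with 90007 to 101710 introns. Per the file headers it holds raw counts of boundary (retained) and spliced junction reads as lists of 3 libraries, effective lengths, inclusion levels as a fraction, their difference, and p-values with FDR. As list positions are not tied to replicate numbers, a library is called by its place in the list. Levels recomputed from counts and lengths matched the deposited levels within 0.0005.

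Each clone was tested against WT with a quasi-binomial model whose dispersion was moderated with limma 3.58.1 in R 4.3.3 (squeezeVar, floor of 1; two-sided F test). Introns entered with mean retained and mean spliced reads of 10 or more, and p-values were adjusted by Benjamini-Hochberg over all introns, with a threshold of 0.05. The same model tested junction shares, at sites with several junctions listed in all 4 tables and against the junction with most WT reads, and differences among clones. Gene sums of spliced reads (mean of 50 or more) were divided by median-ratio factors, and limma (trend) was run on log2(reads + 0.5). A count model had been planned there but was not used. Splice annotation came from GENCODE v29. The scripts were tested on simulated data.

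The junction tests were added after the data were seen, and the members and lists were chosen with earlier results of these data known. Named were all 10 genes, every intron called in at least 1 clone and, per gene, the tested introns with highest WT retention, with most retained reads and with the smallest median adjusted p, of which the text prints those that its results turn on. Junctions were named after their values were seen. Alternatives covered filters, centring, scaling, tests, thresholds and libraries left out.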

Additional observations from a re-analysis of the deposited data

Results flagged for a closer look

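The following values of the hnRNP genes differed among the 4 clones in a test of the difference itself, over the 12 clone libraries, with p-values adjusted by Benjamini-Hochberg over all features tested.

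The retention level differed in 12 of the called introns. In HNRNPC the adjusted p was 0.0046 for the intron that starts with the C2 stretch, and 0.019 and 0.0082 for the introns downstream and upstream of the short untranslated exon. It was 1.5e-09 for the last intron of HNRNPD and 9.9e-08 for that of HNRNPDL. In HNRNPH1 it was 0.00062 for intron 9, 0.0044 for intron 8, 0.00054 for intron 3 and 0.01 for intron 2 of HNRNPH1-202. HNRNPA2B1 had 0.005 for intron 9 and 0.016 for intron 1, and the first intron of HNRNPU had 0.00082.

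Junction use differed for the C2 donor of HNRNPC (adjusted p = 0.0025), for its 5′ skipping junction at the acceptor (2.6e-18) and the donor (2e-16), and for the 3′ junction of HNRNPA2B1-203 (0.011). It differed on both sides of the HNRNPD exon (0.032 and 0.016), and at the acceptor and donor of the skipping junction of HNRNPK (0.0017 and 0.0032). In HNRNPK it also differed for the alternative last acceptor (chr9:83969441-83970161, 0.021) and for the 5′ junction chr9:83978453-83980152 (0.00017). HNRNPH1 had 0.021 for chr5:179616219-179617020 and 0.0034 for chr5:179623165-179624316, and HNRNPU had 0.006 for the donor behind its stretch.

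Spliced reads per gene differed for all 10 members, as for most genes tested. In limma the adjusted p was 3.1e-06 for HNRNPA1, 5.8e-07 for HNRNPA2B1, 4.5e-08 for HNRNPC, 6.9e-10 for HNRNPD and 0.00032 for HNRNPDL. It was 0.0019 for HNRNPH1, 0.00089 for HNRNPK, 0.0037 for HNRNPL, 0.00021 for HNRNPM and 0.0011 for HNRNPU.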

How the results depend on the processing

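Counts of introns called against WT were 10, 12, 2 and 5 for KO-1 to KO-4. At an adjusted p of 0.01 those of KO-1, KO-2 and KO-3 were 2, 5 and 1. Counting only introns with no other annotated exon gave 4, 3, 0 and 0, limma on the log2 odds gave 0 in all 4 clones, and the authors' deposited FDR gave 6, 6, 1 and 1. Without a filter KO-1 had 17 and KO-3 had 5, with a mean of at least 50 reads KO-1 had 5, and centred on the median intron KO-1 had 4. Leaving out 1 library gave 0 to 21 for KO-1, 3 to 18 for KO-2, 1 to 5 for KO-3 and 2 to 6 for KO-4. Of 115 introns tested among clones, 14 in place of 24 differed at 0.01.

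Counts of genes with changed spliced reads were 3, 9, 2 and 5. Scaling to total spliced reads gave 5 for KO-1 and 3 for KO-4, and an adjusted p of 0.01 left 1 for KO-3 and 2 for KO-4. Leaving out 1 library gave 2 to 4, 8 to 9, 1 to 4 and 2 to 6. Counts of junction tests called were 8, 7, 3 and 5. At 0.01 those of KO-2, KO-3 and KO-4 were 4, 1 and 3, and with 1 library left out the ranges were 4 to 8, 4 to 8, 1 to 5 and 2 to 6. The causes were not tested. No alternative reversed the direction of a called intron, junction or gene among those named.

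No paired analysis was possible because the deposited lists carry no replicate numbers. The planned edgeR and DESeq2 fits of gene sums were not run. Of the 201 introns 83 were not tested. In WT 44 of these had a mean under 10 for spliced reads and 39 for retained reads. KO-1 had the fewest reads.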
